A study of Mus musculus with 8 samples.

Results

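The Hox genes of the mouse were taken as the 39 symbols that join Hox, a cluster letter from a to d and a number, out of 24420 rows of the total RNA table. Of these 39 genes, 19 also stand among the 5804 rows of the polysomal table. Cluster a holds 11 of them, cluster b 10, cluster c 9 and cluster d 9. The libraries came from embryos at E11.5 (counted in days after conception) of 2 genotypes, Lin28a-/-;b-/- (double knockout, dKO) and wildtype (WT), with total RNA and polysomal RNA (RNA bound to several ribosomes at once) sequenced in 2 libraries each, which makes 8 libraries in 4 groups. The dKO embryos are labelled as knockouts of Lin28a and Lin28b, RNA-binding proteins that hold back the maturation of let-7 microRNAs. The tissue is labelled as brain, while the growth protocol speaks of neural tube. The labels do not say whether the 2 libraries of a group came from separate embryos or from pools, so every p-value measures the spread between these libraries only, which may be technical.

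Hox genes encode homeodomain transcription factors that give cells their position along the head-to-tail axis. They sit in 4 clusters, and genes at the same place in different clusters form a paralog group with a shared number. Low numbers, at the 3′ end of each cluster, are switched on earliest and reach forward into the hindbrain. Middle numbers are used in the cervical to thoracic spinal cord, and the highest numbers, at the 5′ end, in the lumbar cord, tail, limbs and genitals. In mouse the clusters lie on chromosome 6 (Hoxa, minus strand), chromosome 11 (Hoxb, plus), chromosome 15 (Hoxc, plus) and chromosome 2 (Hoxd, plus). The forebrain and midbrain use almost none of them, so their RNA in a neural tube sample comes mainly from hindbrain and spinal cord. In bulk tissue, fewer cells of a type and less RNA per cell cannot be told apart.

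The clusters also carry microRNA genes. miR-10 lies beside the paralog 4 genes and miR-196 beside the paralog 9 and 10 genes, and mammalian miR-196 is known to cut Hoxb8 mRNA at a nearly complete match in its 3′UTR. The mature forms are printed with the seed (bases 2 to 8) in capitals because the seeds of let-7 and miR-196 are alike but shifted by 1 base. Sequences and positions are from RefSeq on GRCm38.p6.
let-7a-5p: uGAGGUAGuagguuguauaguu
miR-196a-5p: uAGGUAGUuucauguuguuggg
miR-196b-5p: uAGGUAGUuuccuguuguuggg
miR-10a-5p: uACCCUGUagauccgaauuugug
The longest annotated 3′UTR of every gene was searched for the 7-base match to each seed. The let-7 match CTACCTC was found in 6 of 39 Hox genes (15.4%), against 10.1% of 21045 genes with a 3′UTR. The miR-196 match ACTACCT was found in 9 of 39 (23.1%), against 6.85% of those genes, and the miR-10 match ACAGGGT in 4 of 39 (10.3%), against 12.9%. Sites of 5 genes called in the total RNA comparison are shown as 22 bases of the 3′UTR with the seed match in capitals. The first pair are the let-7 matches of the 2 genes that were lower in dKO, and the next are miR-196 matches of genes that were higher.
Hoxb4 let-7 site: aaccaggccccttcCTACCTCt
Hoxb1 let-7 site: ctttgtatctgcaaCTACCTCa
Hoxa5 miR-196 site: atatttttattcaaACTACCTa
Hoxb6 miR-196 site: tggaaggagcacatACTACCTa
Hoxb7 miR-196 site: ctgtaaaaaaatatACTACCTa
The Hoxb8 3′UTR has no exact seed match to miR-196 but holds the window below, in which capitals mark the 21 of 22 bases that pair with miR-196a by Watson-Crick rules and the lower-case base forms a G:U pair.
Hoxb8 miR-196a window: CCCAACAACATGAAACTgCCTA
Mature microRNAs were not measured in these libraries, and a match is a description of the sequence and not of its use.

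Both targeted genes were lower in the dKO libraries than in WT. Lin28a had 6.55 and 7.73 CPM (counts scaled to a common library size) in dKO total RNA, against 73.3 and 72.1 CPM in WT, and Lin28b had 48.0 and 55.0 CPM in dKO, against 128 and 123 CPM in WT. Lin28b RNA thus remained at 0.411 of its WT level in dKO. Which part of each gene the alleles remove is not given in the sources used here, so these counts do not show a loss of Lin28b. Total RNA libraries held 15768767 and 15612883 counts in dKO and 15650360 and 15060560 in WT, so sampling depth was alike. The listed genes of the polysomal table summed to 3740980 and 5164982 counts in dKO and to 14874143 and 15414712 in WT and these sums cover only the selected genes, so they do not give depth. Ribosomal RNA precursor Rn45s made up 9.52% and 4.59% of these polysomal counts in dKO, against 0.120% and 0.109% in WT. The dKO polysomal libraries also differed most from each other, with a chi-square per degree of freedom of 24.8 over genes, against 2.88 to 3.19 for the other pairs of replicates.

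In both genotypes Hox RNA was most abundant in paralog groups 2 to 5 and scarce in groups 10 to 13. Per kb of exon, the member with the most counts was Hoxa2 in cluster a (27.5 CPM per kb in dKO and 27.3 in WT), Hoxb3 in cluster b (20.9 in dKO and 19.2 in WT), Hoxc4 in cluster c (13.2 in dKO and 11.6 in WT) and Hoxd3 in cluster d (10.8 in dKO and 9.72 in WT). Hoxa2 is the Hox gene that reaches farthest forward in the hindbrain, and the paralog 3 and 4 genes act in its posterior part. A mean of at least 50 counts over the 4 total RNA libraries was reached by 15 genes, here called well counted (119 to 1323 counts). The 9 of them in paralog groups 1 to 4 and the 6 in groups 5 to 9 include none of groups 10 to 13. The other 24 genes are treated as low-count members. All 12 genes of paralog groups 10 to 13 together had 30 and 31 counts in dKO and 46 and 42 in WT. Hoxc12 and Hoxd12 had no count in any total RNA library, where a floor of 3 counts allows up to 0.191 to 0.198 CPM.

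**Figure D1:**
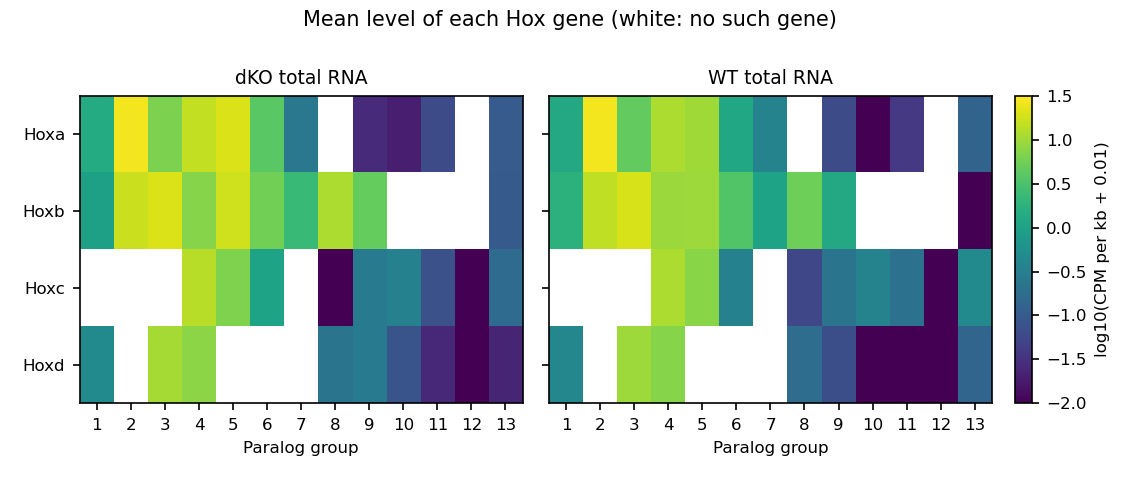
Mean total RNA level of each Hox gene in dKO (left) and WT (right) as log10 of CPM per kb plus 0.01, with clusters in rows and paralog groups in columns; white squares mark places where the mouse has no gene. In both genotypes the highest levels lie in groups 2 to 5, and no gene of groups 10 to 13 exceeds 0.448 CPM per kb.

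In total RNA, middle Hox genes were higher in dKO than in WT and the first 4 paralog groups mostly passed no test. Of 25 genes tested, 10 rose, 2 fell and 13 did not pass the threshold of an adjusted p under 0.05, while 14 had too few counts to be tested. Over all 14594 genes tested, 30.7% were called, 14.7% higher and 16.0% lower in dKO. The median log2 fold change (dKO over WT) was 0.19 over the tested Hox genes, against 0.00 over all genes tested. Among the 15 well-counted members 7 rose, 1 fell and 7 were not called, where 35.6% of all well-counted genes were called, 16.9% higher and 18.7% lower.

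**Figure D2:**
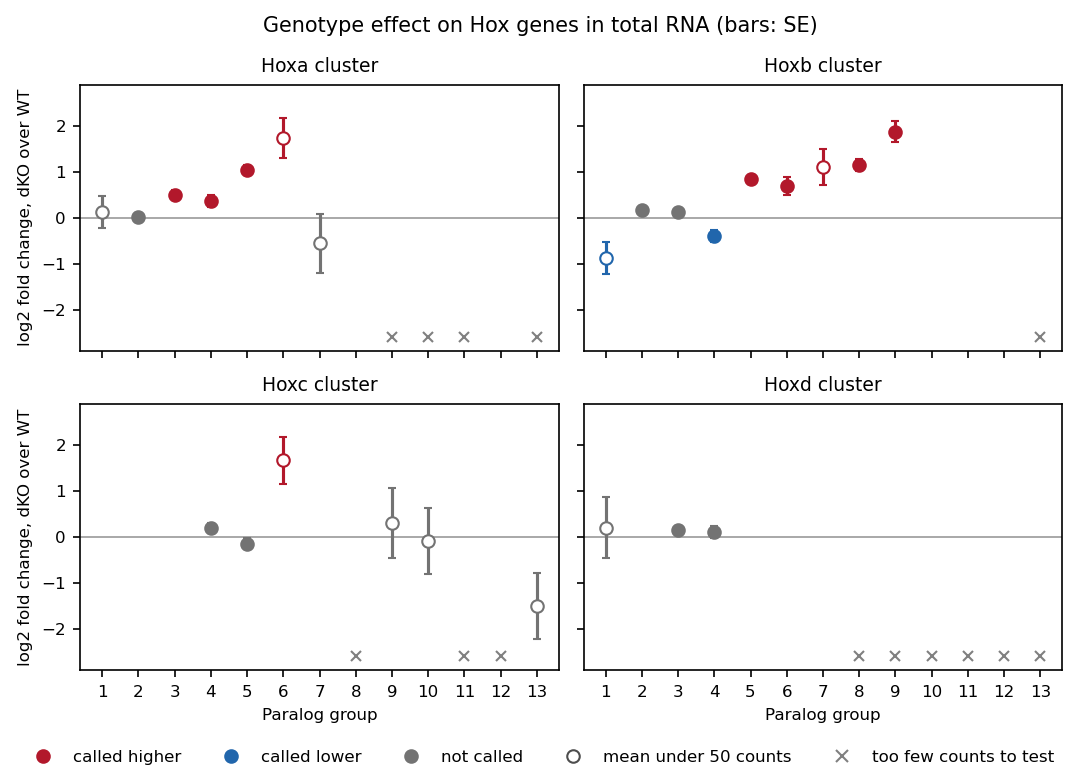
Log2 fold change of each tested Hox gene (dKO over WT, total RNA) with its SE, by paralog group and cluster. The genes of paralog groups 5 to 9 that were called all lie above 0, from Hoxb6 (0.69) to Hoxb9 (1.87).

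By paralog number, groups 1 to 4 hold 12 genes, all tested, of which 2 rose, 2 fell and 8 were not called, with a median log2 fold change of 0.14. Groups 5 to 9 hold 15 genes, of which 8 rose, 0 fell (also 0 at an unadjusted p under 0.05, and 0 by DESeq2 or limma-voom), 3 were not called and 4 were not tested, with a median of 1.04 over those tested. Groups 10 to 13 hold 12 genes, of which 2 were tested and 0 called by edgeR or limma-voom (1 lower at an unadjusted p under 0.05). DESeq2 gave an adjusted p for well-counted Hox genes only, so for neither of these 2. Over all genes tested 14.7% were higher in dKO and 16.0% lower. The summed CPM of each group, dKO over WT, was 0.806 for group 1, 1.07 for group 2, 1.16 for group 3 and 1.06 for group 4. It was 1.56 for group 5, 1.96 for group 6, 1.58 for group 7, 2.16 for group 8 and 3.14 for group 9. The ratio was thus at or below 1.16 in each of the first 4 groups and at or above 1.56 in each of the next 5. These bands were chosen with earlier results of these data known, so the cut and the shares below are a description and no test. The sums of groups 8 and 9 rest mostly on Hoxb8 and Hoxb9. The rise of group 7 rests on Hoxb7, since Hoxa7 had a log2 fold change of -0.56 and was not called. Genes of groups 5 to 9 made up 31.4% and 30.7% of all Hox counts in dKO, against 22.2% and 21.7% in WT. The exact 95% binomial intervals were 30.4 to 32.4% and 29.8 to 31.7% in dKO, and 21.2 to 23.2% and 20.7 to 22.7% in WT, and cover counting error only. Both dKO shares lie above both WT shares.

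**Figure D3:**
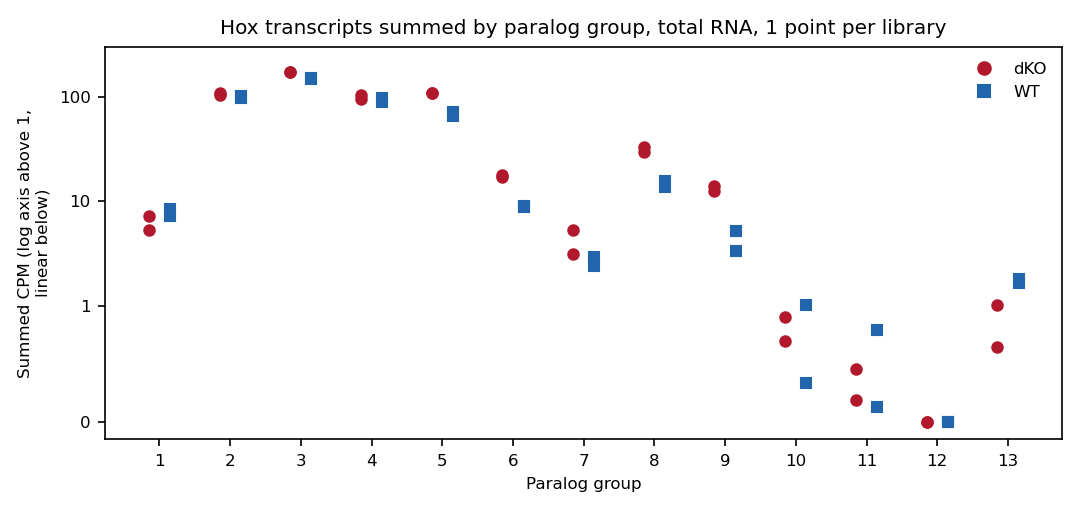
Summed CPM of the Hox genes of each paralog group in every total RNA library, dKO to the left of WT, on an axis that is logarithmic above 1 CPM and linear below. The gap between genotypes is wider in groups 5, 6, 8 and 9 (ratio of means 1.56 to 3.14) than in groups 2 to 4 (1.06 to 1.16).

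By cluster, a and b held all calls but that of Hoxc6. Cluster a had 4 genes that rose among 7 tested, cluster b had 5 that rose and 2 that fell among 9, and cluster c had 1 that rose among 6. Cluster d had 3 tested genes and 0 calls by edgeR or limma-voom, also at an unadjusted p under 0.05. DESeq2 called neither Hoxd3 nor Hoxd4 and gave no adjusted p for Hoxd1. Over all genes tested 30.7% were called, 14.7% higher and 16.0% lower. The 1 call among 6 genes of cluster c and 0 among 3 of cluster d are thus few to judge by. The summed CPM, dKO over WT, was 1.33 for cluster a, 1.28 for b, 1.05 for c and 1.11 for d. Cluster d has no genes of paralog groups 5 to 7 and cluster c none of 7, so cluster and paralog number cannot be fully told apart.

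Hoxa5, which acts in the cervical spinal cord and in phrenic motor neurons, had 39.9 and 37.6 CPM in dKO, against 18.1 and 19.7 CPM in WT. Both dKO values were about as close to each other as the WT values were, and the groups lay far apart. Its log2 fold change was 1.04 ± 0.12 (SE, adjusted p = 1.96e-17). Hoxb5, its paralog in cluster b, had 49.0 and 48.2 CPM in dKO, against 30.2 and 24.2 CPM in WT (0.83 ± 0.10, adjusted p = 1.5e-14). The WT libraries of Hoxb5 differed by more than the dKO libraries did, but did not reach them. Hoxc5, the third paralog, had 19.3 and 22.4 CPM in dKO, against 23.8 and 22.3 CPM in WT. Its groups overlapped and it was not called (log2 fold change -0.15 ± 0.13, adjusted p = 0.425). Group 5 thus split by cluster, with rises in a and b.

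Further along cluster b, Hoxb6 had 10.9 and 11.7 CPM in dKO, against 7.001 and 7.009 CPM in WT (log2 fold change 0.69 ± 0.20, adjusted p = 0.00261). Hoxb8, used in the cervical to thoracic cord, had 32.2 and 29.6 CPM in dKO, against 15.02 and 12.89 CPM in WT (1.15 ± 0.13, adjusted p = 6.92e-17). Hoxb9, a thoracic cord gene, had 13.3 and 10.7 CPM in dKO, against 2.29 and 4.30 CPM in WT. For Hoxb9 the fold change was 1.87 ± 0.23 on the log2 scale (adjusted p = 1.28e-14), the largest among well-counted Hox genes. The size of this estimate is uncertain, at 1.47 without WT replicate 1 and 2.38 without WT replicate 2. In all 3 genes every dKO library lay above every WT library. The calls of Hoxa5, Hoxb5, Hoxb6, Hoxb8 and Hoxb9 held under every other tool, scaling, filter, block, offset and left-out library that gave an adjusted p, but Hoxb5 and Hoxb6 lie under an absolute log2 fold change of 1 and were lost where that was required as well.

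The 250 bases before the transcript start are printed for 3 called genes whose windows are in the RefSeq table, to set a higher gene with motif matches beside one without and beside a gene that was lower. Capitals mark the letters TTTATG, a core that Cdx and posterior Hox proteins bind, and TATAAA, the TATA box, each on either strand; the windows lie at chr11:96281655-96281904 (Hoxb8, plus strand), chr6:52204588-52204837 (Hoxa5, minus strand) and chr11:96318017-96318266 (Hoxb4, plus strand) on GRCm38.p6.
Hoxb8: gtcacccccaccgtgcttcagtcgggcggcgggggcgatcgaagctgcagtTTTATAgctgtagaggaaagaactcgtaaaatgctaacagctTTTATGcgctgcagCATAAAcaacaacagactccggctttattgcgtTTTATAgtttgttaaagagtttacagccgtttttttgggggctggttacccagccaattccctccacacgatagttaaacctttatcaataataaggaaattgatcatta
Hoxa5: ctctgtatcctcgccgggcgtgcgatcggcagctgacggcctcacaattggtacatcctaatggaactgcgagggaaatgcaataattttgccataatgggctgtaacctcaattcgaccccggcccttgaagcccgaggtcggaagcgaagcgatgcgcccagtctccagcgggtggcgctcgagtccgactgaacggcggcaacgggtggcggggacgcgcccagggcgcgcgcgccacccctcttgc
Hoxb4: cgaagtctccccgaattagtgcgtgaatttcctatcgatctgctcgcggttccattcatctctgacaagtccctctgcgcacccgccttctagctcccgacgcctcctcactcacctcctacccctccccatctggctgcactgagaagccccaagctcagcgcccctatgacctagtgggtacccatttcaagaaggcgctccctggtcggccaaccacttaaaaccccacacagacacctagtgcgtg
The Hoxb8 window held 2 matches to TTTATG and 2 to TATAAA, and the windows of Hoxa5 and Hoxb4 held neither. Windows were found for 24 starts of 22 Hox genes. TTTATG was in 5 of the 24 (20.8%), against 10.8% of 32851 windows of all genes. The joint Pbx and Hox core TGATTNAT was in 2 (8.33%), against 2.83% of all windows, and TATAAA in 4 (16.7%), against 12.4%. CpG pairs numbered 28 in the Hoxa5 window, 14 in that of Hoxb4 and 12 in that of Hoxb8, with a median of 12.5 over the Hox windows and 6 over all windows.

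**Figure D4:**
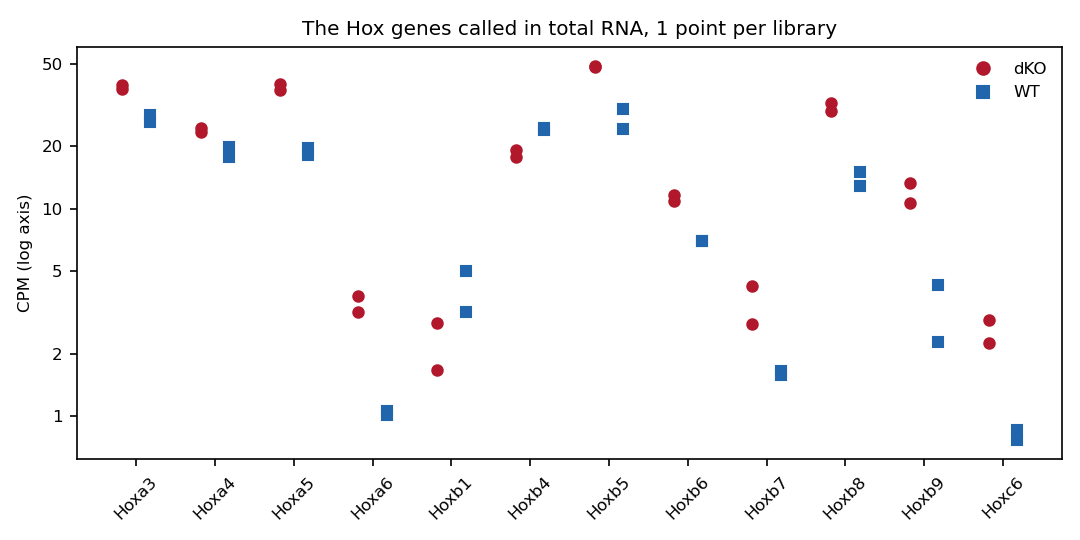
CPM (log axis) of the 12 Hox genes called in total RNA, 1 point per library, dKO left of WT. In Hoxb1 and Hoxb4 both dKO libraries lie below both WT libraries, and in the other 10 genes above them.

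In paralog groups 3 and 4, Hoxa3, which patterns the posterior hindbrain and the pharyngeal arches, had 39.6 and 37.8 CPM in dKO, against 26.2 and 28.4 CPM in WT. It rose by 0.50 ± 0.11 on the log2 scale (adjusted p = 2.83e-05). Genes of the other strand overlap 25.4% of the exon bases of Hoxa3 and 16.0% of those of Hoxa4, so their counts are uncertain. Hoxa4 had 23.4 and 24.7 CPM in dKO, against 17.7 and 19.8 CPM in WT (log2 fold change 0.36 ± 0.13, adjusted p = 0.023). The call of Hoxa4 did not hold with DESeq2 (adjusted p = 0.101), nor without dKO replicate 1, dKO replicate 2 or WT replicate 1. Its estimate ran from 0.27 without WT replicate 1 to 0.44 without WT replicate 2. Hoxb4, which marks the posterior hindbrain, fell to 19.3 and 17.7 CPM in dKO, against 24.5 and 23.9 CPM in WT (log2 fold change -0.39 ± 0.13, adjusted p = 0.0121). It was the well-counted Hox gene that fell, with a let-7 seed match in its 3′UTR (shown above). Its adjusted p was 0.133 without dKO replicate 2, 0.0635 without WT replicate 1 and 0.0628 with DESeq2. Hoxa4 and Hoxb4, paralogs of each other, thus lay on opposite sides of 0.

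The other 6 well-counted genes of groups 2 to 4 did not pass the test. Hoxa2 had 49.0 and 48.7 CPM in dKO, against 49.6 and 47.3 CPM in WT, a log2 fold change of 0.01 ± 0.09 (adjusted p = 0.944). Hoxb3, which sets identity in the posterior hindbrain, had 89.7 and 88.2 CPM in dKO, against 82.4 and 80.6 CPM in WT (0.13 ± 0.07, adjusted p = 0.153). Hoxb2 had 60.0 and 55.2 CPM in dKO, against 52.4 and 50.3 CPM in WT (0.17 ± 0.08, adjusted p = 0.127). These estimates were smaller than that of any called gene of groups 5 to 9. Hoxc4 had 31.9 and 35.9 CPM in dKO, against 33.0 and 26.6 CPM in WT (0.19 ± 0.11, adjusted p = 0.198). Hoxd3 had 44.9 and 45.5 CPM in dKO, against 38.0 and 43.4 CPM in WT (0.15 ± 0.10, adjusted p = 0.237), and Hoxd4 had 20.8 and 25.1 CPM in dKO, against 23.0 and 19.5 CPM in WT (0.11 ± 0.13, adjusted p = 0.581). Counts of the last 2 genes are uncertain, because 62.4% of the exon bases of Hoxd3 and 52.3% of those of Hoxd4 are shared with another gene on the same strand. Hoxb3os, an antisense gene, overlaps 52.9% of the Hoxb3 and 27.3% of the Hoxb2 exon bases, and the strand setting of the counting is not given in the sources used here.

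Of 10 low-count genes tested 4 passed, where 6.02% of all genes tested with a mean under 50 counts did, 3.65% higher and 2.37% lower. Hoxa6 had 50 and 59 counts in dKO, against 16 and 16 in WT (log2 fold change 1.74 ± 0.44, adjusted p = 0.000472). Hoxc6, which marks brachial motor neurons, had 46 and 35 counts in dKO, against 12 and 13 in WT (1.67 ± 0.51, adjusted p = 0.00575), and was the gene of cluster c that rose. Hoxb7 had 67 and 43 counts in dKO, against 26 and 24 in WT (1.11 ± 0.39, adjusted p = 0.0186). With Hoxb6, all 3 paralogs of group 6 rose. Hoxb1, which specifies rhombomere 4 of the hindbrain, had 44 and 26 counts in dKO, against 79 and 48 in WT (-0.87 ± 0.35, adjusted p = 0.0418). The adjusted p of Hoxc6 was 0.122 without dKO replicate 1. That of Hoxb7 was 0.351 without dKO replicate 1, 0.0673 without WT replicate 1 and 0.0798 without WT replicate 2. That of Hoxb1 was 0.38 without dKO replicate 2 and 0.482 without WT replicate 1, so without either of these libraries no Hox gene was called lower. DESeq2 gave no adjusted p for these 4 low-count genes. The other 6 low-count genes that were tested were not called; Hoxc13, with 5 and 7 counts in dKO and 18 and 16 in WT, came nearest (adjusted p = 0.101). The 14 genes not tested had at most 0.827 CPM in any library.

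Set beside the seed matches, the 6 genes with a let-7 match counted 0 higher, 2 lower, 2 not called and 2 not tested, and the 33 without one counted 10 higher, 0 lower, 11 not called and 12 not tested. Over all genes tested 14.7% were higher and 16.0% lower, and with 4 tested genes that hold a let-7 match the 2 lower ones are few to judge by. The 9 genes with a miR-196 match counted 4 higher, 1 lower, 2 not called and 2 not tested, and the 30 without one 6 higher, 1 lower, 11 not called and 12 not tested. Hoxb1 holds both matches, which overlap in its 3′UTR. Of the 2 lower genes, DESeq2 did not call Hoxb4 (adjusted p = 0.0628) and gave no adjusted p for Hoxb1. These counts are a description, and no test of them was made.

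Genes that work with the Hox proteins or lie beside them were taken from fixed lists. Over all genes tested in total RNA, 14.7% were higher in dKO and 16.0% lower, and lists this short are few to judge by. Of 9 Hox cofactors of the Pbx, Meis and Pknox families, 2 rose, 2 fell and 5 were not called. Pbx2, a partner that Hox proteins bind DNA with, fell to 239 and 223 CPM in dKO, against 369 and 382 CPM in WT (log2 fold change -0.70 ± 0.04, adjusted p = 6.56e-73). Pknox1 rose to 80.9 and 77.3 CPM in dKO, against 56.8 and 62.1 CPM in WT (0.41 ± 0.07, adjusted p = 4.01e-07), while Meis2 rose by 0.17 ± 0.04 and Meis3 fell by 0.24 ± 0.08 on the log2 scale. Of 10 regulators of Hox expression, 5 were tested and 0 called by edgeR (1 at an unadjusted p under 0.05). Cdx1, Cdx2 and Cdx4, which switch on middle Hox genes in the tail bud, had 0 to 2 counts per library. Of 14 noncoding RNAs of the clusters with a row, 4 were tested and 0 called by edgeR; the 1 at an unadjusted p under 0.05, Hoxb5os, had 39 and 48 counts in dKO, against 21 and 24 in WT (0.93 ± 0.43, adjusted p = 0.0916). Evx2, the homeobox gene next to Hoxd13, rose to 84 and 84 counts in dKO, against 49 and 40 in WT (0.90 ± 0.30, adjusted p = 0.0129).

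Markers of axial regions and of other tissues were measured in the same libraries, where 14.7% of all genes tested were higher in dKO and 16.0% lower. The 10 forebrain genes tested held 2 higher, 1 lower and 7 not called, and the 8 midbrain and isthmus genes 4 higher and 4 not called. Among the hindbrain genes, Gbx2 rose by 0.73 ± 0.11 and Phox2a fell by 1.01 ± 0.25 on the log2 scale. Of the tail bud genes 3 were tested and 1 was called, Nkx1-2, which had 26 and 25 counts in dKO, against 113 and 102 in WT (-2.09 ± 0.32, adjusted p = 7.79e-10). Of 8 motor neuron genes, Foxp1 rose by 0.27 ± 0.05, Isl2 fell by 1.31 ± 0.30 on the log2 scale and 6 were not called, where 30.7% of all genes were called. The summed level of the 18 somite and limb mesenchyme genes was 238 and 232 CPM in dKO, against 293 and 300 CPM in WT. Of 12 tested genes 2 were lower and 10 not called. Most of the difference in this sum came from Col2a1 (55.45 and 58.85 CPM in dKO, 102.2 and 99.19 CPM in WT). The 7 neural crest genes summed to 224 and 212 CPM in dKO, against 220 and 231 CPM in WT, with 1 of 6 tested lower. The 5 epithelial genes summed to 125 and 142 CPM in dKO, against 102 and 99.9 CPM in WT, with 2 higher, Lhx1 and Pax8. Most of these sums came from Lhx1 (76.88 and 90.01 CPM in dKO, 65.68 and 63.35 CPM in WT). Pax8 also stands in the midbrain and isthmus list, and Epcam, Cdh1 and Gata3 were not called. The 5 red cell genes all fell, with summed levels of 2630 and 2631 CPM in dKO and 4318 and 4388 CPM in WT. The part of these differences in tissue makeup in the Hox values was not tested.

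In the polysomal table the listed Hox genes of groups 5 and above were higher in dKO, and most of those of groups 1 to 4 were lower. Of 19 listed genes 18 were tested, with 15 higher and 3 lower. The table is a selected list, in which 99.7% of the 5777 tested genes were called, 47.2% higher and 52.5% lower, so that being called says nothing about the Hox genes. Among those listed whose mean reached 100 counts, no log2 ratio of summed counts (dKO over WT) lay between -2.04 and -1.71, so the list looks chosen by a genotype difference in these same libraries, and the direction of its members is no independent evidence. Of the 19 Hox genes, Hoxa2, Hoxb1 and Hoxc4 lay below that empty interval and 16 above it. The median log2 fold change was 2.81 over the listed Hox genes and 1.14 over the 7 well-counted ones, against -0.35 over all listed genes. Genes with a mean under 50 counts in total RNA had a median of 2.03 in this table, and 70.6% of them were higher and 29.4% lower in dKO. Of the 12 listed low-count Hox genes 10 were higher, 1 was lower and 1 was not tested. Most of the higher ones passed the count filter only with their dKO libraries.

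By paralog number, the 4 listed genes of groups 1 to 4 held 1 higher and 3 lower, the 10 tested genes of groups 5 to 9 were all higher, and so were the 4 of groups 10 to 13. Hoxa5 had 58.2 and 64.6 CPM in dKO polysomal RNA, against 24.5 and 27.2 CPM in WT (log2 fold change 1.25 ± 0.15, adjusted p = 0.000538). Hoxb6 had 47.0 and 49.6 CPM in dKO, against 14.2 and 13.3 CPM in WT (1.82 ± 0.16, adjusted p = 0.000222). Hoxb8 had 37.1 and 38.4 CPM in dKO, against 17.8 and 16.6 CPM in WT (1.14 ± 0.17, adjusted p = 0.00111). Hoxb9 had 19.1 and 15.2 CPM in dKO, against 1.97 and 3.99 CPM in WT (2.51 ± 0.41, adjusted p = 0.00165; 3.11 without WT replicate 2). These 4 genes rose in both fractions, with dKO above WT in every library. With an offset for transcript GC content, which was higher in listed Hox genes (median 53.7%) than in all listed genes (49.1%), Hoxb6 was at 0.82 and Hoxb8 at 0.23 (adjusted p = 0.274).

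Among the listed genes of groups 1 to 4, Hoxa2 fell to 40.0 and 43.5 CPM in dKO polysomal RNA, against 58.4 and 60.3 CPM in WT (log2 fold change -0.50 ± 0.13, adjusted p = 0.00896). Hoxc4 fell to 24.7 and 19.3 CPM in dKO, against 36.2 and 43.0 CPM in WT (-0.86 ± 0.20, adjusted p = 0.00576). Hoxb1 had 2 and 10 counts in dKO, against 100 and 141 in WT (-2.42 ± 0.53, adjusted p = 0.00491). Hoxb2 had 91.2 and 88.0 CPM in dKO, against 56.8 and 59.5 CPM in WT (0.62 ± 0.11, adjusted p = 0.00211). The paralogs Hoxa2 and Hoxb2 thus lay on opposite sides of 0. Hoxb2 turned to -0.34 with the GC offset (adjusted p = 0.0354). Without WT replicate 2 the 3 lower genes lost their call, with an adjusted p of 0.138 for Hoxa2, 0.0907 for Hoxc4 and 0.0601 for Hoxb1. Without dKO replicate 2, Hoxb1 was at -3.68. The adjusted p of Hoxa2 was also 0.105 without WT replicate 1, 0.0861 with RLE scaling and 0.259 with DESeq2, and that of Hoxc4 was 0.0546 with DESeq2.

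The listed low-count Hox genes other than Hoxb1 had more polysomal counts in dKO, although the listed genes summed to fewer counts there. Hoxc10, a lumbar cord gene, had 51 and 58 counts in dKO, against 15 and 14 in WT (log2 fold change 3.84 ± 0.39, adjusted p = 0.000326). Hoxa13, which acts at the end of the axis and in the limb, had 21 and 42 counts in dKO, against 2 and 3 in WT (5.44 ± 0.61, adjusted p = 0.000431). Hoxc9, which sets thoracic motor columns, had 70 and 36 counts in dKO, against 22 and 11 in WT (3.68 ± 0.67, adjusted p = 0.00241). Hoxc9 was at 2.77 without dKO replicate 1 and at 4.31 without WT replicate 1. All 3 are called from few counts, and none was called in total RNA. Hoxa6, Hoxa7, Hoxb7, Hoxc8, Hoxc11 and Hoxc13 were also higher, with estimates from 2.73 (Hoxb7) to 4.61 (Hoxc11). Without 1 library these moved by over 1.5-fold in 4 of the 6, to 2.65 without WT replicate 1 and 4.56 without WT replicate 2 for Hoxa6, 3.49 without dKO replicate 1 and 4.86 without WT replicate 1 for Hoxc8, 3.95 without WT replicate 2 and 5.77 without WT replicate 1 for Hoxc11, and 2.71 without dKO replicate 2 for Hoxc13. Hoxd9 had 15 and 8 counts in dKO and 0 and 0 in WT. Its mean dKO level was 15.97 times a WT floor of 3 counts per library. This ratio takes the dKO counts as exact, although those libraries differed (4.411 and 1.575 CPM). Without dKO replicate 1 Hoxd9 could not be tested. Hoxa9 had 10 and 3 counts in dKO and 1 and 1 in WT and was not tested. The count filter asks for enough counts in 2 libraries, which may both be dKO. Hoxa7, Hoxa13, Hoxc8, Hoxc11, Hoxc13 and Hoxd9 had at most 0.675 CPM in a WT library and passed it through the dKO libraries alone. Hoxa6, Hoxc9 and Hoxc10 also needed a dKO library to pass. Their higher calls are thus a description and no evidence of a direction. The 7 listed low-count members of groups 9 to 13 summed to 193 and 201 polysomal counts in dKO, against 51 and 34 in WT, while in total RNA they summed to 33 and 50 counts in dKO, against 52 and 53 in WT. Without WT replicate 2 the adjusted p of Hoxa7 was 0.0575 and that of Hoxc8 0.0532, and without WT replicate 1 that of Hoxa7 was 0.0978. The Rn45s share moved with genotype in the same libraries, and its part in these values was not tested.

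**Figure D5:**
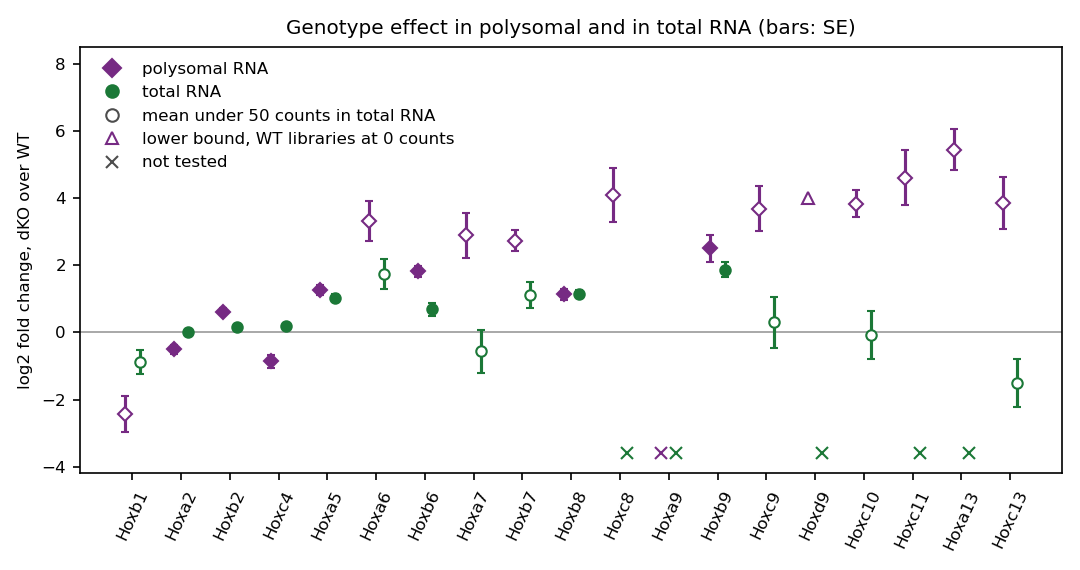
Log2 fold change (dKO over WT) of the 19 listed Hox genes in polysomal RNA (diamonds) and total RNA (circles) with SE, ordered by paralog number. Open symbols are genes with a mean under 50 counts in total RNA, and crosses are genes not tested. The triangle sets the mean dKO level of Hoxd9 against a WT floor, a bound that leaves out the spread of the dKO libraries. From Hoxa5 on every tested polysomal value lies above 0, while the total RNA values of Hoxa7, Hoxc10 and Hoxc13 lie below it.

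Whether the genotype effect differed between fractions was tested as an interaction over all 8 libraries, taken as independent. Of the 18 Hox genes tested, 10 had a higher effect in polysomal RNA, 2 a lower one and 6 were not called. Of all 5768 genes tested 89.5% were called, 43.7% higher and 45.8% lower, so the share of calls among the Hox genes lies below that of the list. Among well-counted genes, Hoxb6 (polysomal minus total log2 effect 1.17 ± 0.22, adjusted p = 0.000697) and Hoxb2 (0.49 ± 0.13, adjusted p = 0.00408) were higher, while Hoxc4 (-1.02 ± 0.24, adjusted p = 0.00224) and Hoxa2 (-0.48 ± 0.14, adjusted p = 0.00805) were lower. Hoxa5 (0.26 ± 0.17, adjusted p = 0.183), Hoxb8 (0.03 ± 0.20, adjusted p = 0.89) and Hoxb9 (0.67 ± 0.52, adjusted p = 0.235) were not called. The estimate of Hoxb8 was thus near 0, and that of Hoxb9 had a wide error. The GC offset turned Hoxb2 to -0.46 and Hoxb8 to -0.86 and left Hoxb6 at 0.18 (adjusted p = 0.55). Scaling in the polysomal fraction rests on the listed genes alone, so these differences are relative to the other listed genes. The list also looks chosen by a genotype difference in the same polysomal libraries. A difference from total RNA may thus be partly built in, and the interaction p-values are no independent evidence of one.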

How the data were processed

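The deposited values are raw counts by gene symbol, in a table for each RNA fraction. Per the submitters' processing notes the tools were FastQC, TopHat and HTSeq, and the notes list 3 build names (GRCm38, mm9, mm10) with neither version nor role. Annotation and strand setting were not given in the sources used here. Genotypes were compared within each fraction with edgeR 4.0.16 in R 4.3.3 (TMM scaling, filterByExpr, quasi-likelihood F test, Benjamini-Hochberg adjustment over all genes tested, threshold 0.05), and the interaction was fitted on all 8 libraries over 5790 shared symbols. Symbols altered to dates were left out of the join. SE is the absolute log2 fold change over the square root of F. CPM uses TMM-scaled totals, and exon length, GC content and 3′UTRs come from GENCODE M21 (GRCm38). Well-counted Hox genes that were called or listed, and the most abundant per kb in each cluster, were given in full; of related lists, up to 4 called genes were named. The Hox members, the paralog bands and the 13 related lists were chosen with earlier results of these data known. Some genes of the related lists are not reported here. Scripts were tested on simulated data. Alternatives were limma-voom (limma 3.58.1), DESeq2 1.42.0, scaling by RLE or the upper quartile, other filters, a GC offset (loess, span 0.5), a replicate block, each library left out, all libraries in 1 fit, the empty interval set to 0 and a log2 fold change of at least 1.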

Additional observations from a re-analysis of the deposited data

Results flagged for a closer look

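For 12 Hox genes the genotype effect differed between polysomal and total RNA by the interaction test of edgeR, in a table where 89.5% of genes did. The listed genes look chosen by a genotype difference in the same polysomal libraries, so such a difference may be partly built in. The difference of the log2 effects, polysomal minus total, was 0.49 for Hoxb2, 1.17 for Hoxb6 and 1.66 for Hoxb7, and -0.48 for Hoxa2 and -1.02 for Hoxc4. It was 3.48 for Hoxa7, 3.41 for Hoxc9, 3.96 for Hoxc10 and 5.42 for Hoxc13, whose total RNA effects were not called. It was 5.86 for Hoxa13, 6.19 for Hoxc11 and 8.18 for Hoxc8, which had too few counts for a test in total RNA. All of these entered the interaction test through their dKO polysomal counts. Hoxc8 had 0 and 0 counts in dKO total RNA and 2 and 2 in WT, so its fitted value depends on the prior count and is no bound. Leaving out WT total RNA replicate 2 moved Hoxc11 to 0.58 (adjusted p = 0.804), Hoxa13 to 4.70 (adjusted p = 0.0559) and Hoxc8 to an adjusted p of 0.0572. Leaving out WT total RNA replicate 1 gave an adjusted p of 0.154 for Hoxc9 and 0.0534 for Hoxc8, and leaving out dKO total RNA replicate 1 gave 0.0557 for Hoxc9. With each library left out in turn, Hoxa7 reached 4.34, Hoxc9 ran from 2.52 to 4.14, Hoxc10 went as low as 2.94 and Hoxc13 as low as 4.27, while Hoxa13 reached 6.50, Hoxc8 ran from 7.55 to 8.85 and Hoxc11 reached 7.37. The GC offset gave 1.10 for Hoxb7 (adjusted p = 0.0811) and 2.42 for Hoxc9 (adjusted p = 0.0798), left Hoxb6 at 0.18 (adjusted p = 0.55) and turned Hoxb2 to -0.46, and DESeq2 gave -0.35 for Hoxa2 (adjusted p = 0.0707).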

How the results depend on the processing

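In total RNA, where 10 Hox genes were called higher and 2 lower, DESeq2 called 6 and 0, all 8 libraries in 1 fit (shared genes only) 6 and 0, and a log2 fold change of at least 1 left 6 and 0. DESeq2 gave no adjusted p for the low-count genes Hoxa6, Hoxb1, Hoxb7 and Hoxc6, so it could not call them. The count of lower genes was 1 with limma-voom, the replicate block, the GC offset or genes of at least 5 CPM on average. In polysomal RNA, with 15 higher and 3 lower, a mean of at least 5 CPM gave 9 higher, and DESeq2 or a log2 fold change of at least 1 gave 1 lower. In the interaction, with 10 higher and 2 lower, a mean of at least 5 CPM gave 3 higher, the GC offset 6 higher and 5 lower, and DESeq2 or a log2 fold change of at least 1 gave 1 lower. With each library left out in turn, the counts ran from 7 to 9 higher and 0 to 2 lower in total RNA, from 13 to 15 higher and 0 to 3 lower in polysomal RNA, and from 8 to 12 higher and 2 to 3 lower in the interaction. The GC offset reversed Hoxb2 in polysomal RNA (-0.34) and Hoxb2 (-0.46) and Hoxb8 (-0.86) in the interaction; the cause was not tested. Over all genes, calls numbered 4485 in total RNA, against 2942 with DESeq2, 1283 in 1 fit and 226 with a log2 fold change of at least 1. They numbered 5760 in polysomal RNA, against 3283 with the GC offset and 2360 with that fold change, and 5160 in the interaction, against 2893 and 2218. RLE scaling moved the median of all genes by 0.24 on the log2 scale in polysomal RNA and by 0.12 in the interaction, DESeq2 by 0.24 and 0.13, and the GC offset by -0.13 and -0.17. Within a fraction, same-numbered dKO and WT libraries showed no pairing (correlation of their deviations -0.04 in total and 0.06 in polysomal RNA). Whether total and polysomal libraries of the same number are paired was not tested, and the interaction takes all 8 libraries as independent. With a replicate block within each fraction, Hoxb1 lost its total RNA call (edgeR adjusted p = 0.051), and the interaction had 11 higher and 3 lower. At 15060560 to 15768767 counts per total RNA library, the 14 untested Hox genes were below what a test could use.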
